A study of Mus musculus with 9 samples.

Results

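H3K27ac is an acetylation of histone H3 that marks active enhancers and promoters. The regions described here carried an H3K27ac peak in LSK cells of control mice and none in LSK cells lacking DEK. H3K27ac peaks of both genotypes on chromosomes 1 to 19 were joined wherever they overlapped by at least 1 bp, which gave 16611 regions. Of these, 1203 held a fl peak and no cKO peak and are called fl-only regions; they were 7.24% of all regions. With the cKO list cut by strength to the length of the fl list, fl-only regions numbered 2645. A further 8519 were shared and 6889 were found in cKO only. Membership was chosen by the H3K27ac peak calls themselves, so the absence of a cKO peak is the rule and not a finding, and H3K27ac values of the members are given as description without a test.

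The cKO mice carried floxed Dek alleles and Tie2-Cre (Dekfl/fl,Tie2-Cre), and the control mice carried the same floxed alleles without Cre (Dekfl/fl, fl), so both genotypes share the floxed alleles. All were C57BL/6 mice of 12 weeks in the resting state. LSK cells, the Lin- Sca-1+ c-Kit+ stem and progenitor gate of bone marrow, were profiled for H3K27ac and H3K4me3 (about 50000 cells). Long-term stem cells (HSC, the CD48- CD150+ cells within that gate, about 20000 cells) were profiled for H3K9ac in both genotypes and for DEK in 3 fl libraries. There was 1 library per genotype and mark, no control library without antibody was used here, and the number of animals per library is not given in the sources used here. Tie2-Cre recombines in endothelial and blood cells from early development onward, so the deletion in these mice is not limited to adult stem cells.

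Enhancers are short stretches of DNA, often far from genes, where transcription factors bind and recruit acetyltransferases such as p300 and CBP that acetylate H3K27. Promoters of active genes carry H3K27ac together with H3K4me3, whereas distal enhancers usually carry H3K27ac with little H3K4me3. DEK is an abundant chromatin-bound protein that was first found as part of a leukaemia fusion and is known to bind histones and to influence acetylation. In blood stem cells, ETS, RUNX, GATA and SCL factors occupy many of these elements.

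The markers of the gate were seen only in part. Kit had an H3K4me3 peak at a gene end in cKO and in fl, and an H3K27ac peak there in cKO but not in fl, while Ly6a (which encodes Sca-1) had no peak of either mark in either genotype. Of the lineage genes Cd3e, Cd4, Cd8a, Ms4a1, Itgam and Ly6g, only Cd4 had a peak of either mark at an end, a single H3K27ac peak in cKO. The Dek gene had an H3K4me3 peak at an end in cKO and in fl, and an H3K27ac peak there in cKO but not in fl; a peak at a gene end does not show whether the floxed part was deleted. The cKO H3K27ac list held 16331 peaks and the fl list 10494. Read depth is unknown, so a place without a peak may be a place where signal stayed under the caller's threshold. In bulk chromatin, fewer cells carrying a mark and less mark per cell cannot be told apart.

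To show promoter DNA at fl-only members, and how it differs among them, the promoter windows of 6 genes are printed. The fl-only peaks cover these windows only in part. They come from RefSeq (GRCm38.p6, the assembly of mm10) and run from 250 bases before to 50 bases after the transcription start, 5′ to 3′ on the gene's strand. Strada (chr11:106193554-106193853, minus strand), Ddit3 (chr10:127290543-127290842, plus), Akap8l (chr17:32350528-32350827, minus) and Mcm7 (chr5:138171217-138171516, minus) are among the 10 strongest gene-end members. Akap8 (chr17:32321189-32321488, minus) neighbours Akap8l and was chosen after its values were seen. Lck (chr4:129573592-129573891, minus) comes from the lymphoid gene list. Capitals mark matches, on either strand, to short motifs of blood factors. These are the GATA motif AGATAA, the first ETS motif CCGGAA, the second ETS motif AGGAAG, the RUNX motif TGTGGT, the SCL E-box CAGCTG and the AP-1 motif TGANTCA; both ETS motifs can share letters.
Strada: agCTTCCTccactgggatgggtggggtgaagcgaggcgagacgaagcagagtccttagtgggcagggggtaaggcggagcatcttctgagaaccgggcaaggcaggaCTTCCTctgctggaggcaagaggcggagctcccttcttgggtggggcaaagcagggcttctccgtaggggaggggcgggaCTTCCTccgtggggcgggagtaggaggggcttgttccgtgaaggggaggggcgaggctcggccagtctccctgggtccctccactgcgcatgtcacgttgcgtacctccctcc
Ddit3: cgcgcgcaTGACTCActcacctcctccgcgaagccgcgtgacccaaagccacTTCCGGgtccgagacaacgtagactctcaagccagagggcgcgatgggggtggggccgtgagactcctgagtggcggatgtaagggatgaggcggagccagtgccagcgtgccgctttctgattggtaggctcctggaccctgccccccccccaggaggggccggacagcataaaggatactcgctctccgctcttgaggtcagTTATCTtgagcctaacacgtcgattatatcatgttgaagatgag
Akap8l: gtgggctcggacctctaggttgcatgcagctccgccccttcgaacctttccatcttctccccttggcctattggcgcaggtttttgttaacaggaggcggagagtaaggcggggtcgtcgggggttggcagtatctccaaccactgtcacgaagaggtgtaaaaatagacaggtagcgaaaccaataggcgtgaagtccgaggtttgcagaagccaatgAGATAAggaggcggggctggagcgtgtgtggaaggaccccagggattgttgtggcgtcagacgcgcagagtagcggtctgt
Mcm7: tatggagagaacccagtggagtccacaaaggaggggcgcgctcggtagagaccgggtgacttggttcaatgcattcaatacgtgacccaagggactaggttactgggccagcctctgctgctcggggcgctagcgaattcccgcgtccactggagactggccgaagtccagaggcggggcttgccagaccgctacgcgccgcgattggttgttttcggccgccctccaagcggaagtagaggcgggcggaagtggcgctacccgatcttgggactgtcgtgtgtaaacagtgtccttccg
Akap8: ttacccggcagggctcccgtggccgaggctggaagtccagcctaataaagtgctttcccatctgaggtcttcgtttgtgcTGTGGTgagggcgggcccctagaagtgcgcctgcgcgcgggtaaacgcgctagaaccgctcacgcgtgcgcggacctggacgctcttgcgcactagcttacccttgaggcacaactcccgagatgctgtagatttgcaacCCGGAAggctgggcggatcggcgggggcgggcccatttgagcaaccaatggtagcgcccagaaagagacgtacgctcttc
Lck: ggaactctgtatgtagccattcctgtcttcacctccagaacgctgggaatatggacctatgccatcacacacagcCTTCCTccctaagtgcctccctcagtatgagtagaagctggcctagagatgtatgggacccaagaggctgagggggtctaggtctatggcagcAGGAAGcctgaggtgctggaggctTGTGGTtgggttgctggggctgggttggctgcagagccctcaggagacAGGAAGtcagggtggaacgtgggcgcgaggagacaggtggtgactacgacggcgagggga

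The Strada window held matches to the second ETS motif only, and the fl-only peak covered 250 of its 300 bases. Ddit3 held the GATA, the first ETS and the AP-1 motif, and Akap8l held the GATA motif. Akap8 held the first ETS and the RUNX motif, Lck the second ETS and the RUNX motif, and Mcm7 none of the 6 motifs. The fl-only peak covered 182 bases of the Ddit3 window, 151 of Akap8l, 159 of Mcm7, 274 of Akap8 and 80 of Lck. The GATA match of Ddit3 and the RUNX match of Lck lay outside the covered bases. So did the match farthest upstream in Strada, and all matches of Lck to the second ETS motif except that farthest downstream. CpG dinucleotides numbered 26 in the Mcm7 window, 27 in Akap8, 22 in Ddit3, 18 in Akap8l, 16 in Strada and 7 in Lck. These windows therefore include CpG-rich promoters of widely expressed genes and the CpG-poor promoter of a T-cell gene.

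The most plainly visible property of the fl-only regions was where they lay. Only 85 of 1203 (7.07%, 95% exact binomial interval 5.68 to 8.66) were within 1 kb of an annotated end of a protein-coding gene, 348 (28.9%, 26.4 to 31.6) lay elsewhere inside a gene, and 770 (64.0%, 61.2 to 66.7) lay outside genes. With lists of equal length the gene-end share was 14.7% (390 of 2645). Shared regions lay at gene ends in 46.3% and outside genes in 34.7% of cases, and cKO-only regions in 62.4% and 16.6%. Intervals on these shares cover counting error only, and with 1 library per genotype none of the differences between classes has a replicate check. The median distance to the nearest protein-coding gene was 27.8 kb for fl-only regions and 0 kb for shared and cKO-only regions, and 414 fl-only regions (34.4%) were over 100 kb from any such gene. Among regions outside genes alone, the median distance was 121 kb in fl-only, 116 kb in shared and 41.5 kb in cKO-only regions, so there the medians of fl-only and shared regions lay close together.

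**Figure D1:**
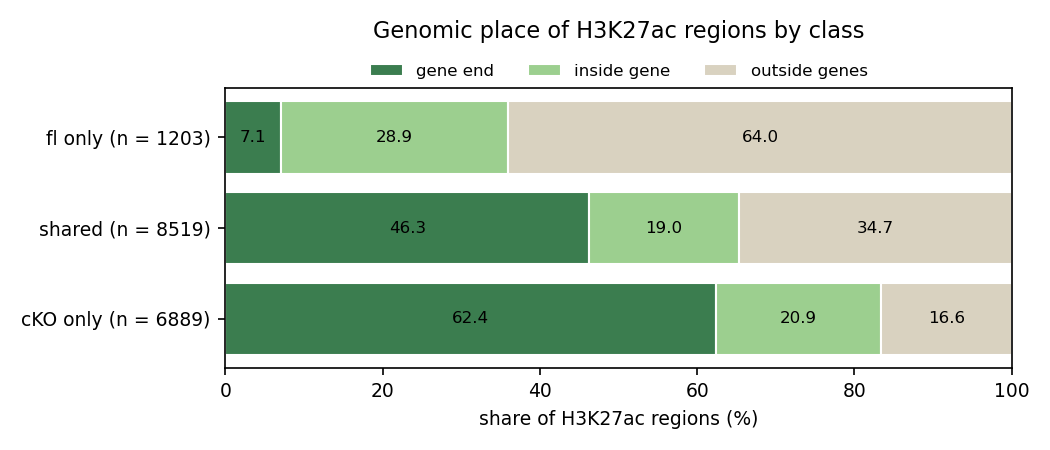
Genomic place of H3K27ac regions in fl only, shared and cKO only. Horizontal bars give the share of regions (%) at a gene end, inside a gene and outside genes; the fl-only bar is 64.0% outside genes, the shared bar 34.7% and the cKO-only bar 16.6%.

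Both kinds of distance rest on the nearest annotated gene and name no target. Long non-coding RNA genes were overlapped by 10.9% of the fl-only regions outside protein-coding genes, by 10.3% of shared and by 18.2% of cKO-only ones. None of 919 miRNA hairpins lay within 1 kb of a fl-only region. The share of regions that were fl only ran by chromosome between 5.22% (chromosome 9) and 9.86% (chromosome 18), and among regions outside genes between 10.5% (chromosome 9) and 20.5% (chromosome 16).

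The fl-only regions were narrow and of low to middle rank. Each consisted of exactly 1 fl peak, with a median width of 329 bp, and 341 (28.3%, 25.8 to 31.0) had the narrowest width in the fl list, 301 bp, against 11.0% of fl peaks in shared regions, whose median width was 435 bp. Column 9 of the deposited lists, the −log10 q of a peak, had a median of 8.36 (range 2.40 to 30.5) in fl-only regions and of 11.0 in shared ones. Fold enrichment over the caller's background had a median of 7.35 (2.97 to 15.4) in fl-only regions and 8.46 in shared ones. By percentile of rank within the fl list, where 100 is strongest, the median was 32.7 in fl-only and 51.9 in shared regions, and no fl-only region ranked above 90.0. These rank values come from the contrast that chose the members and support nothing by themselves. Weak peaks took few distinct values: the fl-only regions had 301 different values of column 9, and the commonest, 7.05, was held by 92 of them.

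The fl-only share did not simply climb as peaks grew weaker. Across deciles of the fl list from weakest to strongest it was 14.9%, 15.8%, 23.0%, 19.8%, 13.5%, 13.0%, 12.1%, 7.20%, 2.37% and 0%. The third decile (23.0%, 20.4 to 25.7) thus lay above the weakest decile (14.9%, 12.7 to 17.2). In the strongest decile 0 of 912 regions were fl only, which allows a share of up to 0.329%.

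The gene-end share also differed between fl-only and shared regions of equal rank. In the weakest decile 18.1% of fl-only and 71.4% of shared regions lay at a gene end, in the third decile 6.06% and 70.2%, and in the seventh 3.45% and 48.7%. Split at the same values of column 9 into 3 classes, the gene-end share was 10.4% (8.07 to 13.1) in fl-only against 69.6% in shared regions of the lowest class, 4.23% against 61.3% in the middle and 1.63% against 10.9% in the highest. Among the strongest shared regions the share outside genes reached 63.2%, near the 71.5% of fl-only regions of that class. The contrast in place was thus widest among weak and middle peaks.

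**Figure D2:**
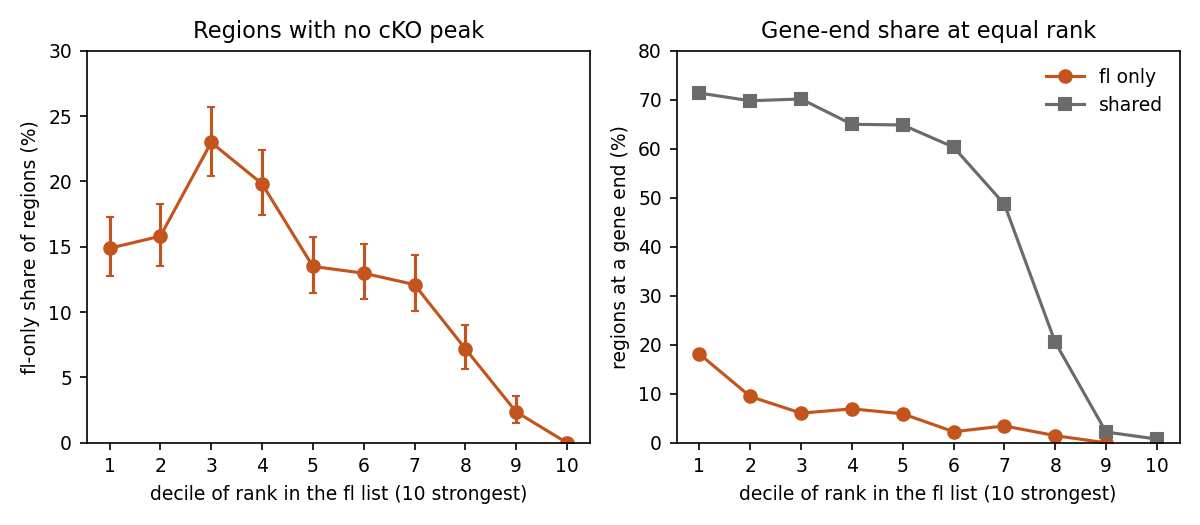
Left, share of regions in each decile of rank in the fl list that had no cKO peak (points, with 95% exact binomial intervals covering counting error only); right, share of fl-only and of shared regions at a gene end in the same deciles. The fl-only share was highest at 23.0% in decile 3 and 0% in decile 10, and the gene-end points of fl-only regions lie below those of shared regions in deciles 1 to 9.

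The rule has an edge, and few members sat on it. Just inside it, the fl-only regions closest to a cKO peak lay near Dusp7 (4 bp from the peak), Ghr (5 bp) and in Pdzd2 (29 bp), and 14 of the members had a cKO peak within 100 bp. Just outside it, shared fl peaks overlapped a cKO peak by as little as 14 bp near Pard6g and 24 bp near Inpp5a, and 21 of 8571 shared fl peaks overlapped by under 100 bp, against a median overlap of 405 bp. Dusp7 encodes a phosphatase of MAP kinases and Ghr the growth hormone receptor; both were named by this distance.

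The 85 gene-end regions touched 100 protein-coding genes, 0.484% of the 20665 on chromosomes 1 to 19. Column 9 had a median of 7.05 in them, below 8.11 in the 348 regions inside genes and 8.93 in the 770 outside genes. The strongest was at Strada (chr11:106193430-106193803), which encodes the pseudokinase partner of LKB1, with a column 9 value of 19.8 and a fold of 12.7 in fl; the nearest cKO peak was 23.0 kb away. The second (14.9, fold 10.3) lay at Ddit3, which encodes the stress-induced transcription factor CHOP, and overlapped the annotated Mbd6, of the methyl-CpG-binding domain family, 1.28 kb from a cKO peak.

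Other gene-end regions among the 10 strongest lay at Gm2046, Akap8l (a nuclear A-kinase anchoring protein), Efcab7 and Itgb3bp (a centromere protein), Nme6 (nucleoside diphosphate kinase family), Ap4m1 and Mcm7 (a subunit of the replicative helicase), Cox7a2l (respiratory supercomplex assembly) and Prh1 (a salivary proline-rich protein). Their column 9 values lay between 10.2 at Prh1 and 14.0 at Gm2046. At Strada, Ddit3, Akap8l, Itgb3bp, Mcm7 and Cox7a2l there was an H3K4me3 peak in cKO and in fl; at Gm2046, Nme6 and Prh1 there was none in either. Prh1 belongs to a family of similar genes, so the placing of reads there is uncertain.

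Among weaker gene-end members, chosen here after their values were seen, were Akap8 (8.95), whose region lay 62 bp from a cKO peak, Gss (9.79, glutathione synthetase), Birc3 (8.74, an inhibitor of apoptosis), Prmt5 (7.05, an arginine methyltransferase), Kdm4a (5.22, a histone demethylase) and Polr2a (4.62, the largest subunit of RNA polymerase II), all with H3K4me3 in both genotypes. Lineage or developmental genes in the same group, Irf4 (6.64), Tlx3 (5.37) and Rspo1 (10.1), had no H3K4me3 peak in either genotype. These picked examples do not stand for the group. Over all 85 gene-end regions, 51 had H3K4me3 in either genotype and 34 in neither.

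Since the gene table gives no strand, starts were read from the promoter table, which lacks chromosome 18. On the other chromosomes 81 of 1152 fl-only regions (7.03%, 5.62 to 8.66) lay within 1 kb of a start, against 43.6% of shared and 56.0% of cKO-only regions. Of the 82 gene-end regions there, 63 were at a start and 19 at a far end only; 18 further start regions lay inside an annotated gene. H3K4me3 in either genotype accompanied 56 of the 81 start regions (69.1%, 57.9 to 78.9), against 96.7% of shared and 72.8% of cKO-only start regions.

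Most fl-only regions carried no H3K4me3 peak. Over all 1203, 71 (5.90%, 4.64 to 7.39) overlapped an H3K4me3 peak in either genotype, against 52.1% of shared regions. With lists of equal length, 13.8% overlapped a cKO and 14.2% a fl H3K4me3 peak, against 5.74% and 5.65% of the 1203. Of those 71, 66 had the peak in both genotypes, 3 in cKO only and 2 in fl only. Across all 10835 H3K4me3 regions, 6.11% were cKO only and 9.52% fl only, so the 3 and 2 of 71 were no larger shares than over that mark as a whole. Inside genes away from ends, 20 of 348 (5.75%) had H3K4me3, all in both genotypes, against 33.0% of shared regions. Outside genes it was 0 of 770, which allows a share of up to 0.390%, against 4.13% of shared regions and 8.46% of cKO-only ones.

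Promoter windows gave a second view of the few promoter members. Of the 100 genes at gene-end regions, 88 had a window in the table, and 51 of 20085 windows on chromosomes 1 to 19 were overlapped by fl-only regions and by no other H3K27ac region. These held a median of 20 CpG, against 26 in windows with a shared region, 26 with a cKO-only region and 5 with none. Their median GC content was 62.0%, against 65.0%, 66.3% and 51.3% in those classes. CCGGAA occurred in 35.3% of them, 34.9% of shared, 26.4% of cKO-only and 19.1% of all windows of that length. AGATAA occurred in 9.80%, against 3.76% of shared, 3.52% of cKO-only and 9.57% of all windows, and for the fl-only class this is 5 windows. AGGAAG was held by 37.3% of the fl-only and 33.8% of all windows, TGTGGT by 13.7% and 14.8%, CAGCTG by 11.8% and 15.6%, and TGANTCA by 1.96% and 7.06%. The windows overlap where genes share a divergent promoter, and a match is a run of letters and not a bound site.

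**Figure D3:**
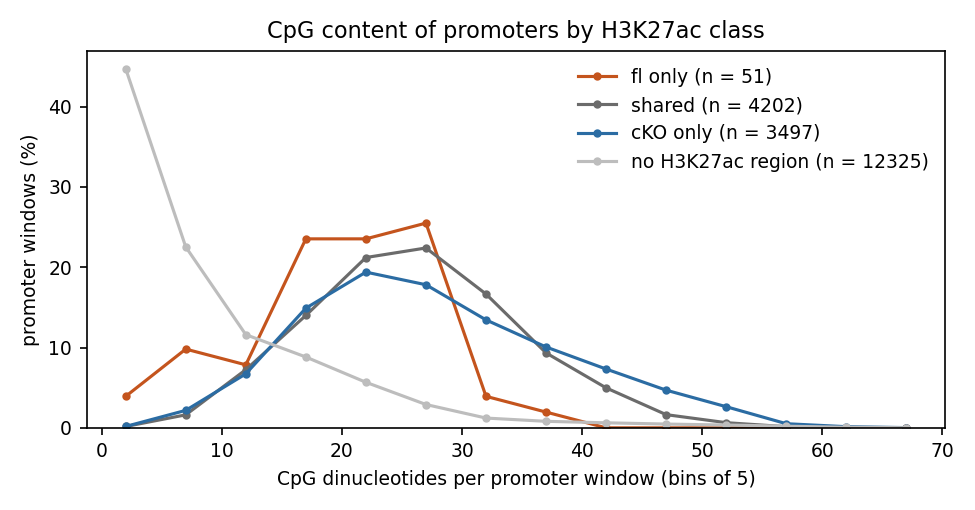
CpG dinucleotides per promoter window (x axis, bins of 5) against the share of windows (%) for windows with a fl-only, shared, cKO-only or no H3K27ac region. The 51 fl-only windows peak near the shared and cKO-only ones but reach no further than 39 CpG, and windows with no region pile up at low counts (median 5).

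Away from gene ends, the strongest member lay 63.1 kb from Med30, a Mediator subunit gene (chr15:52648853-52649345), with a column 9 value of 30.5 and a fold of 15.4. The next lay near Gpr158, an orphan receptor gene (29.2), Dnajb9, an endoplasmic reticulum co-chaperone (27.1), Onecut1, a homeodomain factor of liver and pancreas (26.8), and Cdh8, a cadherin (26.3, 442 kb away). The others of the 10 strongest were near Efr3a, Elmo1 and Lrrn1 and inside Ankfn1 and Sdccag8, with values from 23.6 to 25.0; Elmo1 takes part in cell engulfment and Sdccag8 acts at centrosomes. None of the 10 overlapped an H3K4me3, H3K9ac or DEK peak. Their nearest cKO H3K27ac peak was 6.67 kb away at Gpr158 and 393 kb away at Cdh8, the extremes of the 10.

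No gene dominated the distal set. The 770 regions outside genes had 636 different nearest genes, 540 of them named once and 24 at least 3 times. Cntnap5b and Pcdh7 were nearest to 7 regions each, Pcdh17 to 5, and Brinp3, Cdh8, Ncam2 and Ptchd4 to 4 each, genes chosen after the counts were seen; Pcdh7, Pcdh17, Cdh8 and Ncam2 encode adhesion proteins. Shared regions outside genes were counted for the same genes, 13 for Pcdh7, 7 for Cntnap5b and 6 for Pcdh17. The 348 regions inside genes fell in 318 genes, 24 of which held at least 2. Agbl4 held 5, and AW554918, Fgf12 and Macrod2 held 3 each. Runx3, a blood transcription factor gene, was among those with 2; the region at 1 of its starts (column 9 4.69) had H3K4me3 in both genotypes and a cKO H3K27ac peak 221 bp away.

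The blood gene lists were touched about as often as genes in general. Of 184 list genes on these chromosomes 5 (2.72%) had a fl-only region within 1 kb of the gene, against 2.05% of all 20665 protein-coding genes (423). Shared regions reached 62 (33.7%) and cKO-only regions 61 (33.2%) of the 184 list genes, against 28.5% and 27.5% of all protein-coding genes. The 24 myeloid genes, the 22 acetylation-machinery genes and the 6 study genes (Dek, Akt1, Akt2, Ccnb2, Cdkn1a and Ncor1) had 0. In the LSK identity list only Tek was touched, 1 of 30: it encodes the TIE2 receptor, whose regulatory sequence drives the Cre of the cKO mice, and its region lay inside the gene at column 9 of 5.22. In the lymphoid list only Lck was touched, 1 of 30, with 2 regions (6.64 inside the gene, 4.91 at the start), neither with H3K4me3 in either genotype. Tek and Lck each also had 1 shared H3K27ac region within 1 kb of the gene. Zfpm1, a GATA1 cofactor, was the 1 of 22 erythroid and megakaryocyte genes (7.80, with H3K4me3 in both genotypes and 2 cKO-only regions in the same gene). Mcm7 was the 1 of 30 cell-cycle genes (11.3) and Ddit3 the 1 of 20 stress genes (14.9). The 5 genes are too few to tell the lists apart.

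Most fl-only regions stood singly. The nearest other fl-only region was at a median of 660 kb, and 36 (2.99%, 2.10 to 4.12) had another within 10 kb. Shared and cKO-only regions were more numerous, and their median distance to the nearest of the same class was 79.5 and 71.7 kb. Another lay within 10 kb of 6.95% and 14.8% of them. Within 1 kb the shares were 2.00% in fl-only, 1.03% in shared and 5.94% in cKO-only regions. Joined at 10 kb, the fl-only regions formed 1167 single regions, 15 pairs and 2 runs of 3. One run of 3 lay within Fgf12 (chr16:28293080-28295353, column 9 from 6.74 to 10.6) and the other 186 kb from Map3k7 (chr4:31775908-31777941, 8.25 to 9.69); each overlapped DEK in 1 of its 3 regions and neither had H3K4me3 or H3K9ac. The strongest pair lay 146 kb from Ripk2 (chr4:16309613-16320305, 11.9 and 20.4), with a cKO peak 39 bp from 1 of the regions. Fgf12 encodes an intracellular FGF-related protein, Map3k7 the kinase TAK1 and Ripk2 a kinase of NOD receptor signalling.

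Most fl-only regions were far from any cKO peak. The nearest cKO H3K27ac peak was at a median of 67.7 kb; 56 regions (4.66%, 3.54 to 6.00) had one within 1 kb and 150 (12.5%, 10.7 to 14.5) within 10 kb. The share within 10 kb depended on the settings: it was 7.11% with lists of equal length, 8.20% with peaks within 1 kb also joined, and 21.5% where sharing needed cKO peaks over 50% of the region. Gene-end members had a cKO peak within 1 kb in 12 of 85 cases (14.1%), inside-gene members in 22 of 348 (6.32%) and those outside genes in 22 of 770 (2.86%). The nearest region of any class was at a median of 58.4 kb from a fl-only region and of 45.5 kb from a shared one.

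**Figure D4:**
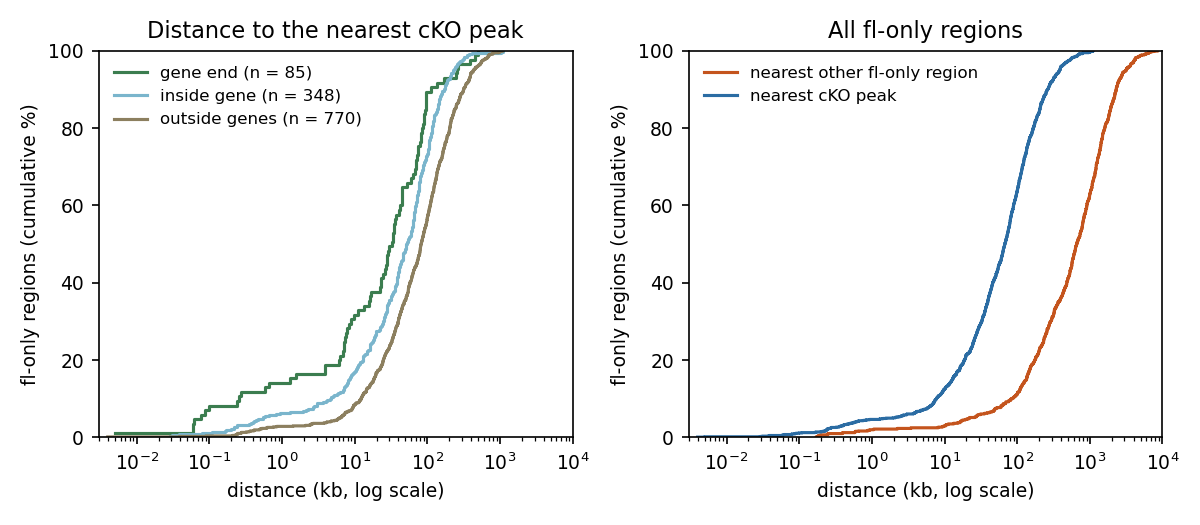
Cumulative share of fl-only regions (%) against distance in kb on a log scale. Left, distance to the nearest cKO H3K27ac peak for members at gene ends, inside genes and outside genes; right, for all members, distance to the nearest other fl-only region (median 660 kb) and to the nearest cKO peak (median 67.7 kb).

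DEK peaks of fl HSC overlapped 18, 18 and 65 fl-only regions in replicates 1, 2 and 3, that is 1.50%, 1.50% and 5.40% (mean 2.80% ± 2.26, SD, n = 3), against 0.986%, 1.22% and 5.14% of shared regions (mean 2.45% ± 2.33). Replicate 3 stands apart, with a list of 5835 peaks on these chromosomes against 1962 and 2008 in replicates 1 and 2. The difference of fl-only minus shared was 0.51, 0.28 and 0.26 percentage points (mean 0.35 ± 0.14), higher in fl-only regions in 3 of 3 libraries. A two-sided exact permutation test that flips the sign of each library gave p = 0.25, the smallest that 3 libraries allow. Taken over all 3 lists, 79 fl-only regions (6.57%, 5.23 to 8.12) had a DEK peak in any library, against 5.58% of shared regions, and 27 (2.24%) did without replicate 3. DEK was profiled in HSC and H3K27ac in the wider LSK gate.

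The pooled DEK share mixed places with unlike levels. At gene ends DEK overlapped 0 of 85 fl-only regions, which allows a share of up to 3.53%, and 0.304% of shared regions. Inside genes it overlapped 8.62% (5.89 to 12.1) of fl-only and 8.52% of shared regions; the libraries' differences were 0.24, -0.29 and -1.28 points (two-sided exact permutation p = 0.5, n = 3). Outside genes the order turned round: 6.36% (4.74 to 8.33) of fl-only against 11.0% of shared regions had DEK in any library. Shared regions outside genes were also wider, with a median of 601.5 bp against 333 bp in fl-only ones. A wider region meets the 1 bp overlap rule more easily, and the part of width in this difference was not tested. The libraries' differences there were -0.34, -0.75 and -4.87 points (mean -1.98 ± 2.51), lower in fl-only regions in 3 of 3 (two-sided exact permutation p = 0.25, n = 3), most of it from replicate 3. By rank class outside genes, DEK in any library lay over 5.43% (3.30 to 8.35) of fl-only against 2.63% (1.32 to 4.65) of shared regions of the lowest class, 7.23% against 6.56% in the middle and 6.82% (2.54 to 14.3) against 14.4% (12.8 to 16.1) in the highest.

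**Figure D5:**
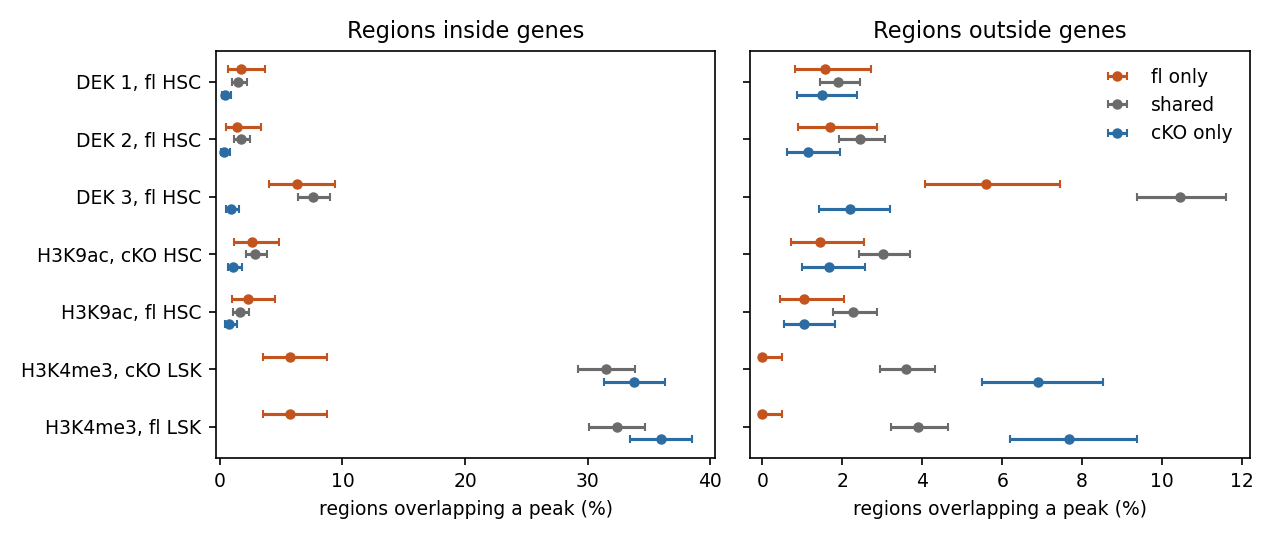
Share of H3K27ac regions (%) that overlap a peak of 7 other lists, for regions inside genes (left) and outside genes (right), in fl-only, shared and cKO-only regions; points are shares and bars 95% exact binomial intervals covering counting error only. Outside genes, DEK replicate 3 overlapped 5.58% of fl-only and 10.5% of shared regions, and H3K4me3 overlapped no fl-only region. Shared regions were wider than fl-only ones, and the shares were not adjusted for width.

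DEK in at least 2 libraries marked 15 fl-only regions (1.25%, 0.700 to 2.05), against 1.22% of shared regions, and 7 of the 15 had it in all 3. Among the remaining pair of libraries it was 0.748% (9 regions) without replicate 3 and 0.831% (10 regions) without replicate 1 or replicate 2. The other 64 DEK-overlapping regions had it in 1 library, 52 of them in replicate 3. Of the 15, 12 lay outside genes and none had H3K4me3. The median of column 9 was 8.36 in the 15 and 8.36 in the 1124 regions without DEK.

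The strongest in H3K27ac was a region on chromosome 17 near Tcte2 (chr17:13654508-13654960, column 9 16.5). A second region near Tcte2 (chr17:13589782-13590116, 10.5) lay 64392 bp from the first and ranked below a region near Otol1 (11.1). DEK fold enrichment over background was 5.66, 7.12 and 9.98 at the first and 8.20, 12.8 and 9.69 at the second in replicates 1 to 3. After the regions near Tcte2 and Otol1, those named lay near Abt1 (8.74), in Qrfprl (8.74), near Gm15319 (8.72), near Gm39469 (8.36), in Fras1 (7.68) and near Insig1 (7.66). Fras1 encodes a basement membrane protein and Insig1 a regulator of sterol synthesis. Gm15319 and, among the 15, Gm3095 and Olfr1402 belong to families of near-identical or similar genes, and the lists were not filtered for repeated sequence here, so these overlaps are uncertain.

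The highest DEK folds of the 15 stood at a weak H3K27ac region 63.5 kb from Adgrl2, a latrophilin gene (chr3:149052558-149052858), chosen after its values were seen. DEK folds were 17.8, 22.6 and 30.3 in replicates 1 to 3, and H3K9ac folds 23.5 in cKO and 21.9 in fl HSC. The fl H3K27ac fold was 5.93, with a column 9 value of 6.01. The nearest cKO H3K27ac peak was 63.1 kb away. Both H3K9ac genotypes and all 3 DEK libraries thus had a peak at a place where H3K27ac was called in fl alone. With no control library used and no filter for repeated sequence, this overlap is also uncertain.

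H3K9ac, a second acetylation mark of active chromatin, overlapped few members. In cKO HSC 21 fl-only regions (1.75%, 1.08 to 2.66) had an H3K9ac peak and in fl HSC 16 (1.33%, 0.762 to 2.15), against 2.07% and 1.37% of shared regions. The cKO H3K9ac list was also the longer, with 3329 against 2099 peaks on these chromosomes. Of 30 fl-only regions with H3K9ac in either genotype, 14 had it in cKO only, 9 in fl only and 7 in both. Over all 5112 H3K9ac regions 59.0% were cKO only, 34.9% fl only and 6.12% in both. Most of the 30 had the peak in 1 genotype, but the 7 in both are a larger share than over that mark. Among H3K27ac regions with H3K9ac, 70 of 223 shared and 10 of 83 cKO-only ones had it in both genotypes. A DEK peak lay over 14 of the 30, against 127 of 223 shared and 20 of 83 cKO-only regions with H3K9ac in either genotype. Outside genes the shares were 1.43% in cKO and 1.04% in fl for fl-only regions, and 3.01% and 2.27% for shared ones. The shared regions there were wider (median 601.5 bp against 333 bp), and the part of width in this difference was not tested.

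The 7 regions with H3K9ac in both genotypes included those in Ppp1r12b and Ruvbl1 and near Gm39469, Olfr1402, Adgrl2 and Map3k7cl, chosen after their values were seen. The strongest in H3K27ac was in Ppp1r12b, a myosin phosphatase subunit gene (chr1:134949328-134949789, column 9 19.8), with H3K9ac folds of 12.4 in cKO and 5.28 in fl. Ruvbl1, which encodes a subunit of the TIP60 and INO80 complexes, had folds of 14.2 in cKO and 11.3 in fl, with H3K27ac at 5.37. Near Map3k7cl, the 1 region of the 7 without DEK, the folds were 3.66 in cKO and 15.8 in fl. Folds are set against each library's own background and were not compared between libraries.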

How the data were processed

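CUT&Tag tags DNA beside an antibody-bound target with a tethered transposase. The submitters' processing notes list Bowtie2, Picard and MACS2 and the mm10 build; their versions, the calling threshold and any control track, not given in the sources used here, remain unknown. A list was deposited for each library, and peaks were thus called sample by sample. The authors' score is 10 times −log10 p, truncated. Their deposited fold is a ratio of a peak over its local background. Column 9, deposited by the authors, is −log10 of the q-value, and column 8 is −log10 of the p-value. All these served only to rank, filter or describe peaks within a list; the lists hold no read counts, so depth is unknown. Row names of DEK replicate 3 carry a Flag stem, unlike replicates 1 and 2; the labels were followed. In the DEK lists 11 irregular rows were left out, a rule set after seeing them.

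Peaks were joined at 1 bp or more on chromosomes 1 to 19. Genes were RefSeq protein-coding genes of GRCm38.p6 (21887; no strand), and a gene end is 1 kb either side of an annotated end. Overlap with another list needs 1 bp. Shares were not adjusted for region width (median 329 bp in fl-only, 609 bp in shared and 433 bp in cKO-only regions). Shares carry 95% Clopper-Pearson intervals (counting error only); at 0 the limit is 3 counts. With 1 library per genotype no test between genotypes was run; the 3 DEK libraries, which the labels do not tie to separate animals, gave an exact permutation test whose p measures only the spread between them. Promoter windows and motifs came from RefSeq. Interval code (Python 3.11.15, scipy 1.17.1, numpy 2.4.6, pandas 2.3.3) was tested on simulated data, and figures were drawn with matplotlib 3.10.9. The regions, the 8 gene lists and the naming rule were chosen with earlier results of these data known. Named are the 10 strongest gene-end and 10 strongest other members by column 9, list genes with a member within 1 kb, up to 10 members with DEK in at least 2 libraries, and the 3 largest runs; others are said to be chosen later. A few items that the rule names are not reported here. Alternatives changed the joining rule, cutoffs, list length, chromosomes, windows, distances and DEK libraries.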

Additional observations from a re-analysis of the deposited data

Results flagged for a closer look

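The sex chromosomes are outside the regions described and were set aside by the rule. Joined in the same way, H3K27ac regions on chromosome Y were fl only in 50 of 216 cases (23.1%, 17.7 to 29.4). Those on chromosome X were fl only in 93 of 835 (11.1%, 9.08 to 13.5), against 7.24% on chromosomes 1 to 19. The comparisons use neither chromosome. On chromosome Y 94.9% of all regions and 48 of the 50 fl-only regions lay outside genes, against 63.1% of all regions on X. Among regions outside genes, 82 of 527 on X and 48 of 205 on Y were fl only. On chromosomes 1 to 19 that share ran by chromosome from 10.5% to 20.5%. The share on X lay within that range and the share on Y above it. The pooled share of X thus mixes places with unlike levels, while that of Y comes almost wholly from regions outside genes. The number of Y peaks was 166 in the cKO and 129 in the fl H3K27ac list, and 0 in the cKO and 1 in the fl H3K4me3 list. Ddx3y, Kdm5d, Uty and Eif2s3y, genes of the Y, had no H3K27ac or H3K4me3 peak in either genotype. No group held 4 or more libraries, so no library was set against others of its group.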

How the results depend on the processing

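Across 87 recomputed values of 11 results, 68 stayed within the interval of the value reported (for the number of regions, within 1.5 times) and 19 did not. Cutting the cKO list to the length of the fl list by column 9 moved most: 2645 regions were then fl only, 14.7% of them at a gene end, 8.28% with DEK in any library, 13.8% with a cKO and 14.2% with a fl H3K4me3 peak, a median rank percentile of 38.5, 5.07% with another within 10 kb and 7.11% with a cKO peak within 10 kb. By construction, this setting drops the weakest cKO peaks. Calling a region shared only where cKO peaks cover 50% or more gave 7.53% with a cKO and 7.61% with a fl H3K4me3 peak, and 21.5% with a cKO H3K27ac peak within 10 kb. Joining peaks within 1 kb gave 4.45% with a cKO H3K4me3 peak and 8.20% with a cKO H3K27ac peak within 10 kb.

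The DEK share in any library was 2.24% without replicate 3 and 6.07% without replicate 1 or 2; in at least 2 libraries it ran from 0.748% to 0.831%. It was 3.91% with DEK peaks of column 9 of at least 5. With that cutoff on H3K9ac, 0.748% had a fl H3K9ac peak. Of distances, 50 kb gave 7.40% with another fl-only region and 41.5% with a cKO peak, and 5 kb gave 7.07% with a cKO peak. No paired analysis was possible because each genotype has 1 library per mark and DEK was profiled in fl alone. Unknown depth, 1 library per genotype and narrow peaks near the threshold limit every absence of a cKO peak.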
